A study of Caenorhabditis elegans with 4 samples.

Results

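The X chromosome of Caenorhabditis elegans carried 463 of the 2715 regions called as bound by UNC-130::GFP in fed larvae of the first stage (L1), which is 17.1% of the list (95% exact binomial interval over regions, 15.7% to 18.5%). Its members are all entries of the deposited list whose chromosome is X, so neither width nor significance entered their choice. The animals were hermaphrodites of strain OP77, which has the unc-119(ed3) mutation on chromosome III and the integrated transgene wgIs77. That transgene supplies a working unc-119 copy and unc-130 fused to TY1, EGFP and 3xFLAG, and all libraries of the study share it. A goat antibody to GFP was used for 2 ChIP libraries (chromatin immunoprecipitation and sequencing), each with a library of input DNA from the same numbered replicate. No library from animals without the tag is among these 4. The genotype names no mutation of the endogenous unc-130 gene. The transgene was introduced by particle bombardment, and the labels give neither its copy number nor its insertion site. The stage label reads fed L1, while the chromatin protocol is worded for embryos.

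UNC-130 is a forkhead transcription factor, a family that binds DNA through a winged-helix domain. In C. elegans, unc-130 is known from the patterning of dorsal and ventral body regions, where it limits expression of the guidance ligand unc-129 in body muscle, and from the asymmetric divisions that set chemosensory neuron identities. The X chromosome differs from the autosomes of this species in several well-known ways. In hermaphrodites a dosage compensation complex lowers transcription from both copies in somatic cells, and few genes on it are expressed in the germline. Autosomes also divide into gene-dense centres and repeat-rich arms, a division that is weaker on X.

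Each region is given by its start and end in bp (WormBase WS180) together with its q value, the false discovery rate assigned by the authors' peak caller, PeakSeq. The list is a combined one without values per library, so a region has no replicate value and the read depth behind it is unknown. Regions on 1 chromosome are not replicates of a condition, and all comparisons with the autosomes below are descriptions without a test: X is placed inside or outside the range of the 5 autosomes. An exact permutation test of 1 X chromosome against 5 autosomes could not go below p = 0.167. Significance is given as q or as −log10 q, which is larger for smaller q values, and ranks are places in the whole list of 2715. The span of a chromosome is the distance between its outermost regions, and its left, middle and right parts are 3 equal lengths of that span.

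The X chromosome had 3 regions far above all its others, in 3 different parts of the chromosome. The first was X:6736302-6745954, 9653 bp wide with −log10 q of 38.4. The second was X:16929346-16931886, 2541 bp wide with −log10 q of 35.8. The third was X:1503560-1505229, 1670 bp wide with −log10 q of 30.8. They hold ranks 1, 2 and 3 of the whole list and lie far apart, 5.24 Mb between the third and the first and 10.2 Mb between the first and the second. The next region of X, X:16525480-16526058 (579 bp), followed at rank 27 with −log10 q of 13.8. The step from the third region to the next was therefore 17.0 units of −log10 q on X. On the autosomes the same step ran from 0.44 on chromosome III to 4.36 on chromosome IV, and no autosome had a leading region above 29.9. This step is placed where the gap of X lies, and autosomes can have larger steps elsewhere. On V, for example, the first and second regions stood at 29.1 and 21.5. From the first to the fourth region the fall was 24.6 units on X, against 5.83 on II to 13.8 on V.

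The surroundings of these 3 regions were unlike each other. The first had a neighbour 233 bp to its left (X:6735238-6736068, 831 bp, q = 4.20e-04) and another 3047 bp to its right (X:6749002-6750615, 1614 bp, q = 4.04e-08). The second had no other called region within 56.3 kb on either side. The third had its nearest neighbour 23.6 kb away on the left and none for 121520 bp on the right. The widest region of X thus had neighbours on both sides within 5 kb, and the other 2 had none.

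**Figure D1:**
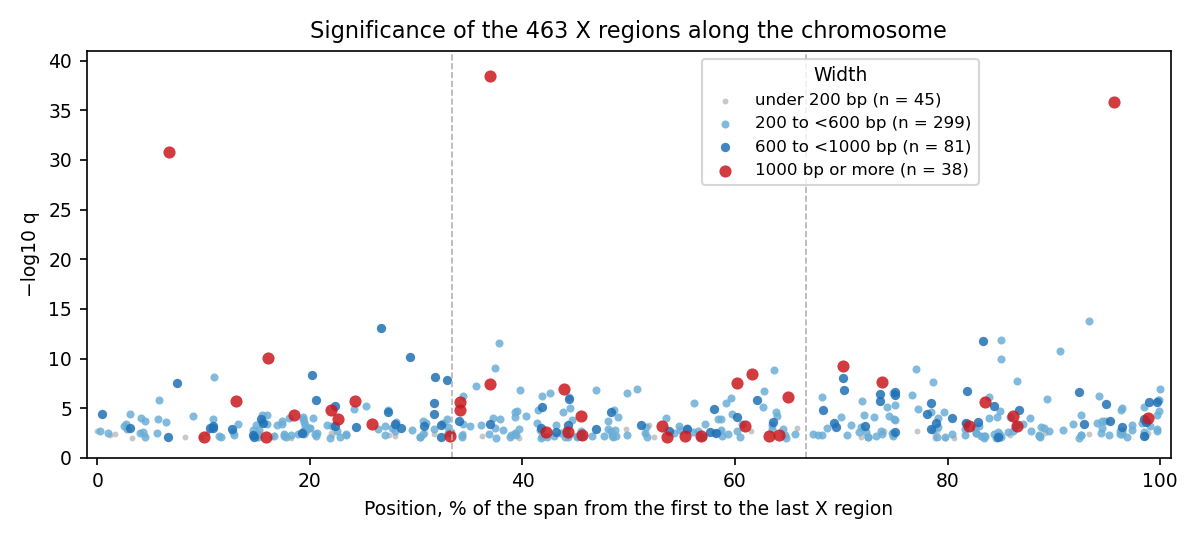
Each point is 1 of the 463 regions of X, placed by its midpoint as a percentage of the distance between the outermost regions (horizontal) and by −log10 q (vertical), with colour and size for width class and dashed lines between the 3 equal parts of the span. The 3 points above 30 are the regions of rank 1, 2 and 3, and all other points lie at 13.8 or below, under a wide empty band.

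X held shares of the most significant regions that varied with how far down the list they were counted. It had 3 of the 10 most significant regions of the whole list. Among the top 25 it still had 3 (12%), among the top 50 it had 5 (10%) and among the top 100 it had 12 (12%, 95% exact interval 6.36% to 20.0%). The share then came to 15.6% in the top 250 (39 regions) and 17.2% in the top 1357 (233 regions), beside the 17.1% of X in the whole list. These shares count the 3 leaders. From rank 4 onward, X held 0 of the 22 regions up to rank 25 (exact interval up to 15.4%) and 2 of the 47 up to rank 50 (4.26%, 0.52% to 14.5%). It held 9 of the 97 up to rank 100 (9.28%, 4.33% to 16.9%) and 36 of the 247 up to rank 250 (14.6%, 10.4% to 19.6%). Ranks were counted from 4 after the leaders had been seen. Starting there leaves out regions of X alone and so lowers its share by construction. For that reason no conclusion is drawn from setting these nested intervals against 17.1%. With the leaders counted, the exact intervals were 2.55% to 31.2% in the top 25 and 3.33% to 21.8% in the top 50. Both contain 17.1%, as does the interval of the top 100.

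At the stricter thresholds X was at the low end of the chromosomes. At 1e-10 or less stood the q values of 11 of the 463 regions of X (2.38%), beside 3.24% of all regions in the list. The autosomes ran from 2.43% on IV to 4.36% on V, so X lay just under their range. At 1e-05 or less stood those of 82 regions of X (17.7%, exact interval 14.3% to 21.5%), beside 19.9% of the list, and this lay at the lower edge of the autosomal range, which ran from 17.7% on V to 24.3% on III. At 0.001 or less, 238 regions of X (51.4%) passed beside 51.7% of the list. The median −log10 q of X, 3.05, was also inside the autosomal range of 2.87 to 3.17. Of these 3 thresholds, the strictest was the one at which X fell outside the autosomal range, and there its value rests on 11 regions.

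Among the 20 most significant regions of X, 6 were at least 1000 bp wide and the median width was 652.5 bp. After the 4 already described came X:4957010-4957673 (rank 36, q = 8.81e-14), X:15079256-15079802 (rank 56, q = 1.51e-12), X:14790076-14790827 (rank 57, q = 1.54e-12) and X:6894037-6894476 (rank 62, q = 2.64e-12). The regions X:16056194-16056711 (rank 75, q = 1.88e-11), X:5429244-5429884 (rank 84, q = 6.71e-11) and X:3114760-3116758 (rank 85, q = 8.12e-11) were the last with a q value under 1e-10. These 7 were between 440 and 1999 bp wide, and 1 of them reached 1000 bp. The remaining 9 of the 20 had q values from 1.09e-10 to 7.94e-09. They were X:15077495-15078064, X:12509175-12510717, X:6825778-6826238, X:13700577-13701057, X:11379160-11379745, X:11014280-11015284, X:3838964-3839703, X:5840801-5841497 and X:2242830-2243273. The 20 were spread over the chromosome, with 7 in the left, 5 in the middle and 8 in the right part of the span.

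The leading regions of X had few close neighbours. Of its 20 most significant regions, 4 (20.0%) had another region within 5 kb, edge to edge, beside 171 of all 463 regions of X (36.9%) and 40.5% of the list. Taking the 20 most significant of each autosome in the same way gave 9 on III, 11 on V, 12 on IV, 13 on II and 14 on I, so X lay below all 5. For the 50 most significant, X had 18 (36.0%) and the autosomes 20 to 32, again with X lowest, but next to chromosome IV. For all regions with q at or under 1e-05, X had 41.5%, inside the autosomal range of 36.2% on IV to 53.2% on V.

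Bound regions of X were wider than those of the autosomes over the lower part of the width distribution. The median width was 414 bp on X, and the medians of the autosomes ran from 353 bp on I to 390.5 bp on V, with a mean of 372 ± 13.4 bp (SD over 5 chromosomes). The 10th percentile was 200 bp on X against 105 bp on V to 171 bp on I, and the 25th percentile was 300.0 bp against 264 to 286 bp. The upper part did not stand apart: the 75th percentile of X, 603.5 bp, and its 90th, 902 bp, were inside the autosomal ranges of 512.5 to 618.5 bp and 746 to 973.5 bp. The difference in medians between X and the pooled autosomes was 44.0 bp.

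Counts by width class show the same shape. Regions under 200 bp made up 45 of 463 on X (9.72%, exact interval 7.18% to 12.8%), beside 13.0% of the list and 12.4% to 15.4% on the autosomes. Regions of 400 bp up to but not including 600 bp made up 28.5% on X, against 21.5% on II to 22.9% on V. Regions of at least 1000 bp numbered 38 on X (8.21%), beside 7.40% of the list, and the autosomes ran from 4.47% on I to 9.63% on V. X thus had fewer short and more intermediate regions than each autosome, and a share of broad regions inside the range. The very narrow regions, of 50 bp or less, numbered 18 on X (3.89%, beside 4.68% of the list), just under the autosomal range of 4.06% on III to 5.73% on V. Of these 18, 2 were 1 bp wide, the smallest q value was 4.77e-04 (rank 1147), and 4 had another region within 2 kb.

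**Figure D2:**
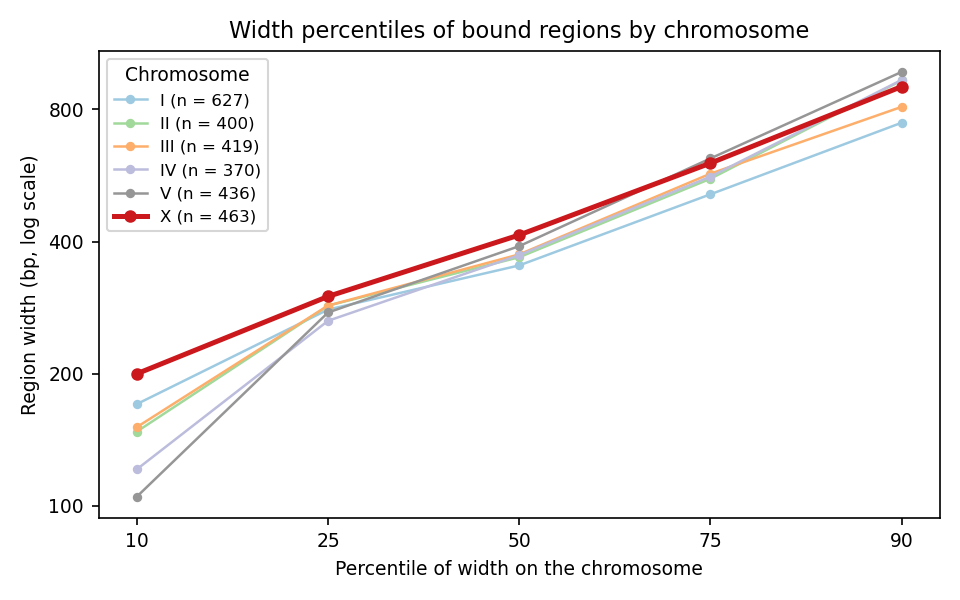
Width in bp (log scale, vertical) at the 10th, 25th, 50th, 75th and 90th percentile of the regions of each chromosome (horizontal), 1 line per chromosome with its number of regions. X is the highest line at the 10th (200 bp), 25th and 50th (414 bp) percentiles and lies among the autosomes at the 75th and 90th.

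The extra width of X was mostly in the more significant regions. The whole list was divided into 4 equal parts by significance. The 107 regions of X in the most significant part had a median width of 585 bp, and the autosomes ran from 437.5 bp on IV to 567 bp on V. In the next part the 126 regions of X had a median of 457.5 bp, against 381.5 to 421 bp. In the 2 less significant parts X lay inside the range of the autosomes, with 348.5 bp against 309 to 374.5 bp and 318 bp against 271 to 322.5 bp. With the 2 upper and the 2 lower parts pooled, the median of X exceeded that of the pooled autosomes by 103.5 bp in the more significant 50% of the list (532 against 428.5 bp) and by 20.5 bp in the remainder (328.5 against 308 bp). X lay above each autosome both times, since the autosomal medians ran from 411 to 473 bp in the more significant 50% and from 299 to 321 bp in the remainder. With q at or under 0.001 the difference was 107 bp, more than 1.5 times that over all regions.

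**Figure D3:**
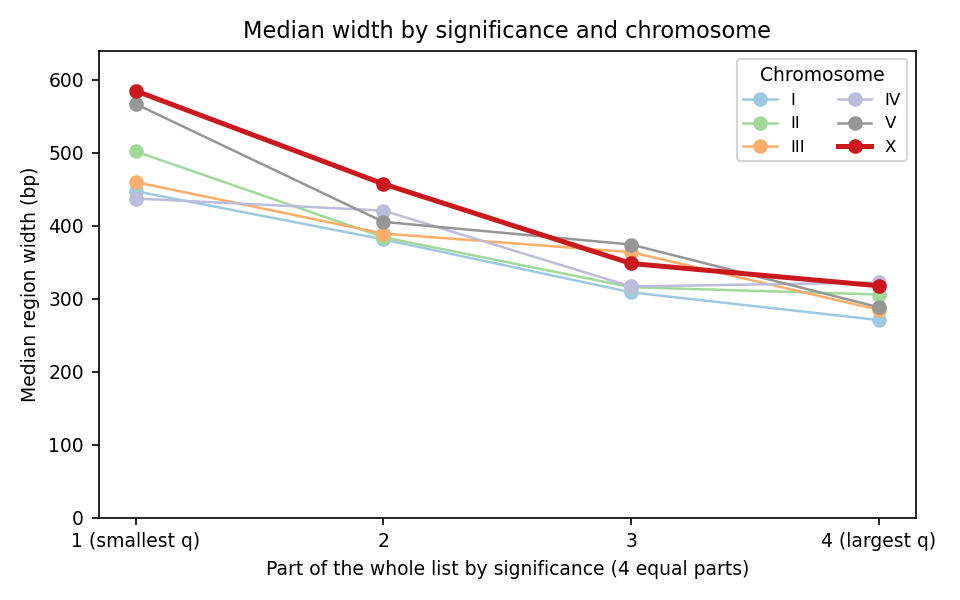
Median width in bp (vertical) of the regions of each chromosome within each of 4 equal parts of the whole list, ordered from the smallest to the largest q values (horizontal). The line of X lies above all autosomes in parts 1 (585 bp) and 2 (457.5 bp) and among them in parts 3 and 4.

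Seen from the other side, regions of X reached high significance less often than those of each autosome in some width classes and not in others. Of the 167 regions of X that were at least 200 but under 400 bp wide, 10 (5.99%) had a q value at or under 1e-05. In the same width class the autosomes had 9.80% on V, 14.0% on II, 16.7% on I, 17.8% on IV and 20.2% on III. From 400 to under 600 bp the share was 23.5% on X, inside the autosomal range of 21.3% to 29.3%, and from 600 to under 1000 bp it was 32.1%, inside 24.0% to 43.9%. From 1000 to under 2000 bp X was again under the range, with 10 of 32 (31.3%) against 39.1% on III to 56.5% on I. Over the regions of X, the rank correlation of width with −log10 q (Spearman's rho) was 0.45, and Pearson's r was 0.62. Among the autosomes rho ran from 0.33 on II to 0.42 on V and r from 0.31 to 0.58. Width and q come from the same peak call and share its unknown read depth, so these coefficients only describe the list. Without the 3 leading regions rho on X was 0.44, but it was 0.24 among regions with q at or under 0.001 and 0.25 in the more significant 50% of the list.

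The 38 broad regions of X, of at least 1000 bp, covered 64.8 of 244 kb (26.5%), a share not offered as a difference from the autosomes. Regions from 1000 to under 2000 bp made up 17.9% of the covered bases of X, just above the autosomal range of 10.4% on I to 17.3% on V. Those of 2000 bp or more made up 8.63%, inside the range of 6.43% on I to 15.4% on V. Of the 38 broad regions of X, 15 (39.5%) had q at or under 1e-05, compared with 15.8% of the 425 narrower regions. Among all 201 regions of that width in the list the share was 46.8%, and on the autosomes it ran from 39.4% on IV to 60.7% on I. The 5 widest were the first and second leaders, followed by X:11604885-11607412 (2528 bp, rank 327, q = 7.52e-07), X:6253790-6256047 (2258 bp, rank 411, q = 2.30e-06) and X:7951392-7953450 (2059 bp, rank 222, q = 1.13e-07). The widest was 3.80 times as wide as the second and alone made up 3.95% of the covered bases of X. Broad regions of X were most frequent in the middle part of the span, with 19 of 150 regions (12.7%), beside 7.40% of the list. The left part had 11 of 144 (7.64%) and the right part 8 of 169 (4.73%). Broad regions of the autosomes were not counted by part, so this is not offered as particular to X.

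Along X, regions were spread about as evenly as along the autosomes. The left, middle and right parts of its span held 144, 150 and 169 regions (31.1%, 32.4% and 36.5%), and each share was inside the autosomal range. Complete 1 Mb windows of X held 26.3 ± 6.86 regions (SD over 16 windows). The coefficient of variation over windows was 0.26 on X, and 0.21 on III to 0.39 on II among the autosomes. The densest window, from 3 to 4 Mb, held 40 regions and covered 17.0 kb, with a median width of 317.5 bp. The sparsest, from 1 to 2 Mb, held 15 regions and included the third leader. Covered bases ranked the windows differently, since the window from 6 to 7 Mb had the most bound sequence (26.5 kb from 29 regions) because of the widest region, without which it had 16.9 kb.

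The share of significant regions on X was larger toward the right end. The q value was at most 1e-05 in 16 of 144 regions of the left part (11.1%), 27 of 150 in the middle (18.0%) and 39 of 169 in the right part (23.1%). The right exceeded the left by 12 percentage points on X. Chromosome II had a difference of the same direction, 13.3 points, and the other 4 autosomes had differences between -2.39 and 0.21 points. The window from 13 to 14 Mb held the most of them, with 12 of its 30 regions (40.0%) at or under 1e-05, beside 19.9% of the list. The median window of X had 4 such regions. Without the window from 13 to 14 Mb the right part had 19.4%. Such windows were not particular to X: from 1 to 2 Mb chromosome III had 10 of 25, and from 11 to 12 Mb chromosome II had 15 of 43. The 3 leading regions lay 1 in each part.

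The left end of X was empty of calls for longer than the left end of any autosome. Its first region began at position 329930, while the first region of an autosome began between 3732 (chromosome I) and 102937 (chromosome IV). The first 1 Mb of X, which is only partly within the span, had 12 regions. None of them had q at or under 1e-05, beside 19.9% of the list, and the smallest q value there was 3.86e-05. The first 1 Mb of an autosome held from 1 such region (III) to 8 (I). Autosomal windows elsewhere had none as well, such as IV from 10 to 11 Mb (15 regions) and V from 2 to 3 Mb (13 regions).

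Within the span, the 5 longest stretches without a call were X:13359010-13638269 (279 kb), X:11750760-12017920 (267 kb), X:2620685-2863962 (243 kb), X:15866433-16056193 (190 kb) and X:1114566-1302243 (188 kb). Stretches of at least 200 kb numbered 3 on X, and 1 on I to 15 on V among the autosomes. Of the complete 100 kb bins of X, 13.4% had no region, inside the autosomal range of 4.03% on I to 25.5% on V. The longest stretch began at the right edge of the largest group of regions on X when gaps of 2 kb or less were joined. At that joining distance the largest group and the longest empty stretch within the span adjoin. With gaps of 5 kb or less joined, the largest group was another, of 6 regions at X:15072786-15081811.

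Spacing on X was also inside the range of the autosomes. Neighbouring midpoints were 22.8 kb apart in the median, against 14.4 kb on I to 29.5 kb on IV, and the median distance to the nearest other region was 8.03 kb, edge to edge, against 5.40 to 13.8 kb. Another region lay within 1000 bp of 55 regions of X (11.9%, beside 14.7% of the list) and within 2 kb of 100 (21.6%, beside 24.0%). Both shares were above chromosome IV (7.57% and 13.5%) and below the other 4 autosomes. Regions with no other within 50 kb numbered 34 on X (7.34%, beside 6.19% of the list), and the autosomes ran from 2.55% on I to 9.86% on V. Density was 26.7 regions per Mb of span on X, 0.97 times that of the pooled autosomes, and 1.10 times that of chromosomes II to V without the dense chromosome I.

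**Figure D4:**
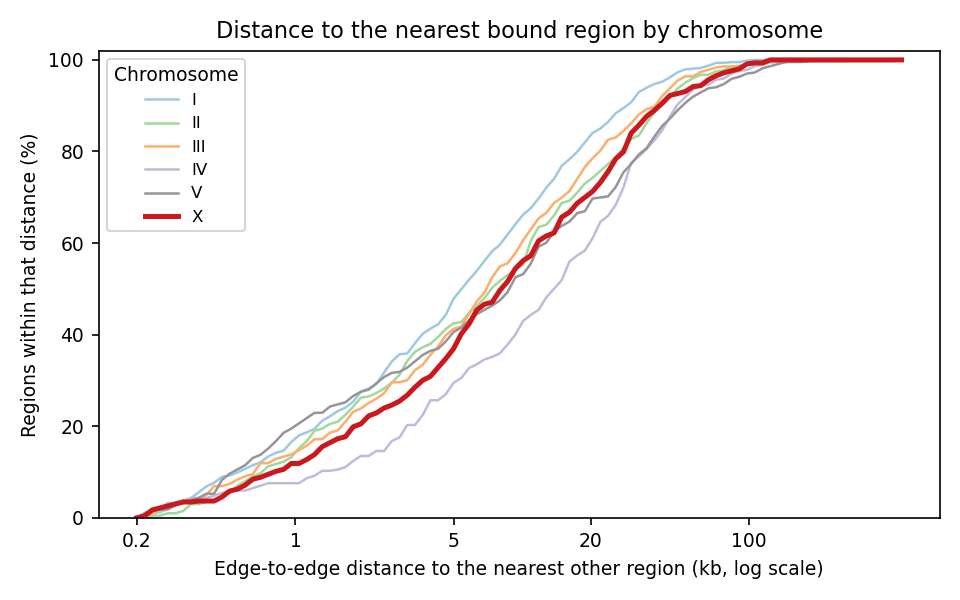
Percentage of the regions of each chromosome (vertical) that have another region within a given edge-to-edge distance in kb (log scale, horizontal). Around 1 to 5 kb the line of X runs between chromosome IV and the other autosomes, reaching 36.9% at 5 kb, and it lies among the autosomes at longer distances.

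Isolated regions of X were wider than those of each autosome, and so were its regions with the nearest other at 2 to 50 kb. The 34 regions with no other within 50 kb had a median width of 463.5 bp, while on the autosomes such regions had medians from 277.5 bp on I to 392 bp on II. Their median −log10 q was 3.26, against 2.66 on V to 3.22 on III. The share with q at or under 1e-05 was 20.6% (7 of 34) on X and lay inside the autosomal range of 11.1% to 25%. The 329 regions of X with the nearest other at 2 to 50 kb had a median width of 403 bp, against 344 to 363.5 bp. The 100 regions of X with a neighbour within 2 kb had a median width of 511 bp, inside the autosomal range of 387.5 to 534 bp. Their share at or under 1e-05 was 20.0%, which was below the 21.3% to 29.7% of the autosomes. On X, isolated and closely spaced regions reached this threshold about equally often, and both shares were near the 19.9% of the list. The shares of closely spaced and isolated regions were also near each other on I (21.3% and 25%) and II (22.6% and 19.0%). On III (29.7% and 11.1%), IV (28% and 16.7%) and V (25.6% and 14.0%) closely spaced regions had the larger share. These comparisons are without a test.

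When gaps of 2 kb or less were joined, the 463 regions of X formed 363 single regions and 44 groups: 36 pairs, 5 groups of 3 and 3 groups of 4 or more. The 3 largest are described first, followed by the 2 groups of 3 whose best member had the smallest q value. The largest group of an autosome held 3 regions on IV and up to 7 on V, and that of X held 5.

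The largest group of X, at X:13350824-13359009, had 5 regions in 8186 bp, of which 41.1% was bound. Its members were X:13350824-13351644 (q = 4.90e-07), X:13353352-13353899 (q = 4.34e-06), X:13354681-13355454 (q = 2.19e-07), X:13356260-13356882 (q = 2.28e-03) and X:13358414-13359009 (q = 1.39e-04). They were alike in width, 548 to 821 bp, and gaps between them were 781 to 1707 bp. The 3 on the left were the more significant.

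The second group, at X:15076828-15081811, was built around 2 strong regions. Its outer members, X:15076828-15077233 and X:15081494-15081811, had q values of 4.92e-03 and 7.15e-03 and were 406 and 318 bp wide. The inner members of rank 89 and 56 were 570 and 547 bp wide, 1191 bp apart, and are among the 20 most significant of X. The third group, at X:8231528-8238918, had its smallest q value on the left, in its widest member. From left to right the widths were 1688, 360, 1120 and 437 bp, and the q values 6.47e-05, 1.93e-03, 4.90e-03 and 6.38e-03.

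The last 2 groups had 3 regions each. At X:15336326-15341178 the central region, only 341 bp wide, was the most significant (q = 1.76e-08), and the widest of the 3 (1426 bp) had q = 6.30e-04. At X:17628301-17633420 the members were 463 to 543 bp wide, with q values of 1.27e-03, 1.77e-03 and 4.60e-05. The most significant member was also the widest in 1 of the 5 groups, the third.

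**Figure D5:**
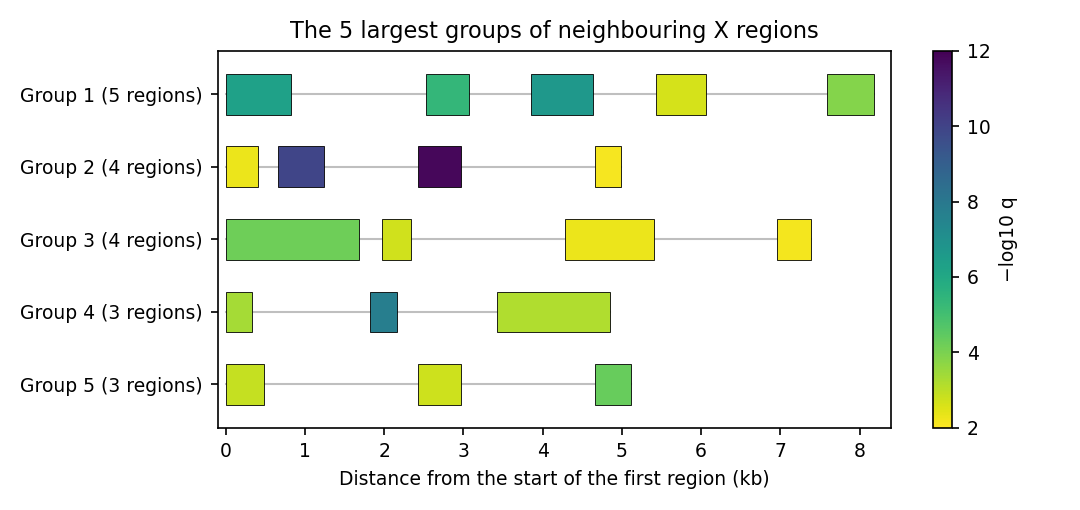
The 5 groups of X with most regions when gaps of 2 kb or less are joined (ties among groups of 3 taken by smallest q), drawn to scale as boxes by distance from the start of the first region in kb (horizontal), 1 group per line in the order of the text and coloured by −log10 q. Group 2 holds the 2 darkest boxes, with q values of 1.09e-10 and 1.51e-12.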

How the data were processed

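ChIP and input DNA of replicates 1 and 2 gave 4 libraries, grouped by the labels' descriptions. Worms were grown at 20 °C and fixed with 2% formaldehyde, per the labels. The authors deposited 1 combined list of binding regions from PeakSeq on WormBase WS180, with a q value per region, per the file headers and the source column. For the aligner, the versions, the ChIP-to-input scaling and the joining of neighbours: not given in the sources used here. The depth is unknown. Starts and ends are deposited in bp and are no score. The largest q value was just under 0.01, there were no overlaps, and neighbours were at least 200 bp apart.

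Widths count both end bases, positions are midpoints, and gaps run from edge to edge. The span, which is the distance between the outermost regions of a chromosome, stood in for its length. Intervals are 95% exact binomial (Clopper-Pearson) and cover only counting over regions. No test was run, for the reasons in the report. Python 3.11.15, numpy 2.4.6, pandas 2.3.3, scipy 1.17.1 and matplotlib 3.10.9 were used, and the layout functions were tested on simulated data. Named regions are the 20 with the smallest q values and the 5 widest. The 5 largest groups with gaps of 2 kb or less joined were also named (ties by smallest q). So were the 5 longest empty stretches within the span and the densest and sparsest complete 1 Mb windows. The neighbours of the widest region were named after their values were seen. Members and comparisons were chosen with earlier results of these data known. Genes, promoters, motifs and sequence at the regions are not analysed here, since the gene table at hand is of another assembly, WBcel235.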

Additional observations from a re-analysis of the deposited data

How the results depend on the processing

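Of 58 recomputed values, 49 stayed within the exact interval of a share or within the SD over the 5 autosomes. Values other than shares also had to keep their direction to be counted among these, while shares have no direction. With q at or under 0.001, and in the more significant 50% of the list, X was wider than the autosomes by 107 and 103.5 bp (44.0 bp over all regions). There 23.95% and 23.6% of its regions had another within 5 kb (36.9% over all, 29.95% with gaps of 1000 bp or less merged). Spearman's rho of width and −log10 q was 0.24 and 0.25 (0.45 over all). The fewer, more significant regions kept are by construction farther apart. The middle of 3 equal parts of the span of X held 37.0% of its covered bases and 32.4% of its regions; without the widest region the former was 34.4%. Density on X over the autosomes turned from 0.97 to 1.10 without chromosome I, a move within that SD. Leaving out the 3 leading regions was chosen after seeing the data. Depth behind each region is unknown. No paired analysis was possible because the combined list used here has no value per replicate, so no replicate could be left out either.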
